A study of Gallus gallus with 32 samples.

Results

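Ion channel genes were read out in the pituitary and the hypothalamus of ROSS308 broiler cockerels, a fast-growing commercial meat hybrid. The genes were those whose symbol starts with KCN (potassium channels), CACN (calcium channels) or HCN (channels opened by hyperpolarization and cyclic nucleotides), or is SCN with a digit and A or B (sodium channels), with a mean of at least 10 counts over the libraries. This rule found 91 symbols and kept 90 genes of the 24881 genes in the count table, of which 10132 carried a symbol. SCN11A fell just below the minimum with a mean of 9.19 counts, and KCNIP3 with 12.97 and KCNA7 with 14.75 lay just above it. The symbols cover more than voltage-gated channels: the 10 KCNJ genes encode inward rectifiers, the 11 KCNK genes encode tandem-pore leak channels, and several CACNG proteins serve AMPA-type glutamate receptors.

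The 32 libraries came from 16 birds, each of which gave a pituitary and a hypothalamus. In each tissue there were 4 low growth rate (LGR) and 4 high growth rate (HGR) cockerels at 6 weeks and 4 of each at 3 weeks of age (days 42 and 22 in the labels). The sample titles carry another number for each age, whose meaning they do not give. The study's methods put slaughter of the older birds some days later than the labels do. The labels call the growth groups heavy and light in the sample titles and give the same words under a tag named shear force, so LGR was read as light and HGR as heavy. All birds were males of the same hybrid, had feed withdrawn before slaughter and were stunned electrically. Lighter and heavier birds were kept in separate pens, so growth rate and pen cannot be told apart, and each tissue was sequenced whole, so fewer cells of a type and less RNA per cell cannot be told apart.

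Voltage-gated sodium channels carry the rising phase of the action potential, calcium channels couple depolarization to transmitter or hormone release, and potassium channels set the resting potential and end each spike. Neurons use all of these. Endocrine cells of the anterior pituitary are also excitable and fire calcium-dependent action potentials that accompany hormone secretion, while hypothalamic neurons govern them through releasing factors.

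Total counts were 6231478 to 18256297 (median 15794495) in the pituitary and 13845756 to 17536175 in the hypothalamus. The tissues matched their labels. The summed level of 8 measured pituitary endocrine markers was 108068 to 229778 CPM (counts scaled to a common library size) in the pituitary and 374 to 2932 CPM in the hypothalamus, while 9 measured neuron markers summed to 813 to 1156 CPM in the pituitary and 3889 to 7366 CPM in the hypothalamus. One library stood apart. The 3-week LGR pituitary replicate 4 had the lowest total (6231478). Among the 16 pituitary libraries it was alone at the lowest level for 52 of the 90 channel genes and alone at the highest for 7. It had the highest endocrine marker sum (229778 CPM, the others at most 196155). Its sum for anchors of the axon initial segment was the lowest (323 CPM, the others 643 to 995). Its neuron marker sum (829 CPM) lay within the range of the others. Why this library stood apart was not tested. Where leaving it out changed a call or moved a count strongly, both values are given.

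The first comparison asked which channel genes distinguished the pituitary from the hypothalamus. Most were lower in the pituitary. Of 90 genes, 17 were higher and 53 lower, with the adjusted p not above 0.05 and a difference of 1.5-fold or more (edgeR quasi-likelihood test over all 32 libraries, Benjamini-Hochberg adjustment over all genes tested). Over the 16169 genes tested, 25.7% were called higher and 27.8% lower in the pituitary. The median log2 fold change, pituitary over hypothalamus, was -0.95 over the channel genes and 0.05 over all genes tested. Without the library that stood apart, 17 genes were higher and 52 lower.

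The levels of 45 genes did not overlap between the 16 pituitary and the 16 hypothalamus libraries, with 5 higher and 40 lower in the pituitary. Over all genes tested, 13.1% lay above and 18.5% below without overlap. Leaving out the 3-week LGR pituitary replicate 4 raised the number above to 8, with KCNH7 and KCNQ5 among those added, and left 40 below. The shares over all genes without this library are not given here. KCNH7 encodes an ERG pore and KCNQ5 a pore of the M-current. Neuron, oligodendrocyte and astrocyte markers were lower in the pituitary as well, with all 9, 4 and 6 measured markers called lower (median log2 fold changes of -2.58, -6.34 and -4.07). The part of cell composition in the channel differences was not tested.

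**Figure D1:**
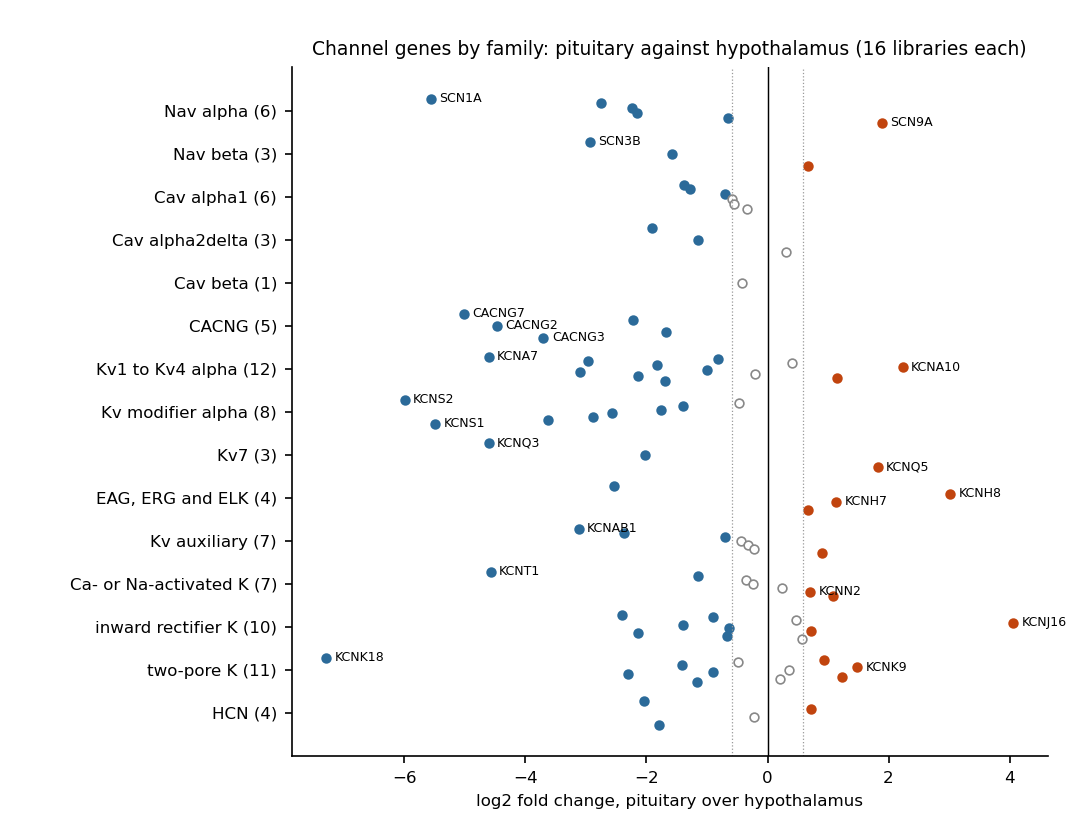
Log2 fold change of each of the 90 channel genes, pituitary over hypothalamus (x axis), by family (y axis, number of genes in brackets). Filled points passed the adjusted p and the 1.5-fold threshold (dotted lines), red for higher and blue for lower in the pituitary. Only the EAG, ERG and ELK family had more genes called higher (3) than lower (1), while all 5 CACNG genes were lower. No EAG gene met the rule, so that family held ERG and ELK genes only. Over all genes tested, 25.7% were called higher and 27.8% lower.

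Among the sodium channel pores, SCN9A was called higher in the pituitary, while SCN1A, SCN2A, SCN3A and SCN8A were called lower. SCN9A, a pore known in mammals from sensory neurons, had 42.9, 85.4 and 104 CPM (lowest, median and highest) in the pituitary, against 16.8, 21.2 and 32.6 CPM in the hypothalamus. All pituitary libraries lay above all hypothalamus libraries, a 3.69-fold difference (log2 fold change 1.88 ± 0.09 SE, edgeR adjusted p = 6.43e-17). SCN1A, a pore that in mammals drives fast-spiking neurons, had 0, 1.17 and 2.28 CPM in the pituitary, against 42.0, 51.5 and 100.9 CPM in the hypothalamus. No pituitary library came near the lowest hypothalamus level (log2 fold change -5.57 ± 0.19 SE, edgeR adjusted p = 1.00e-20). SCN2A and SCN8A, the main pores of axons, were 6.71-fold and 4.72-fold lower in the pituitary, and SCN3A 1.58-fold lower. The SCN3A call rested on the library that stood apart: without it the log2 fold change was -0.58 ± 0.06 SE, against -0.66 ± 0.15 SE with it, and SCN3A fell below the 1.5-fold threshold and was not called.

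The make-up of the sodium channel family therefore differed between the tissues. SCN9A took a median of 39.3% of the family's CPM in the pituitary and 3.94% in the hypothalamus, whereas SCN2A took 18.6% in the pituitary and 47.6% in the hypothalamus. SCN1A took 0.54% in the pituitary and 10.4% in the hypothalamus. SCN3A took 30.9% in the pituitary and 18.2% in the hypothalamus, although its level was lower in the pituitary. These shares are not corrected for transcript length, so they compare a gene between tissues and not genes with one another.

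**Figure D2:**
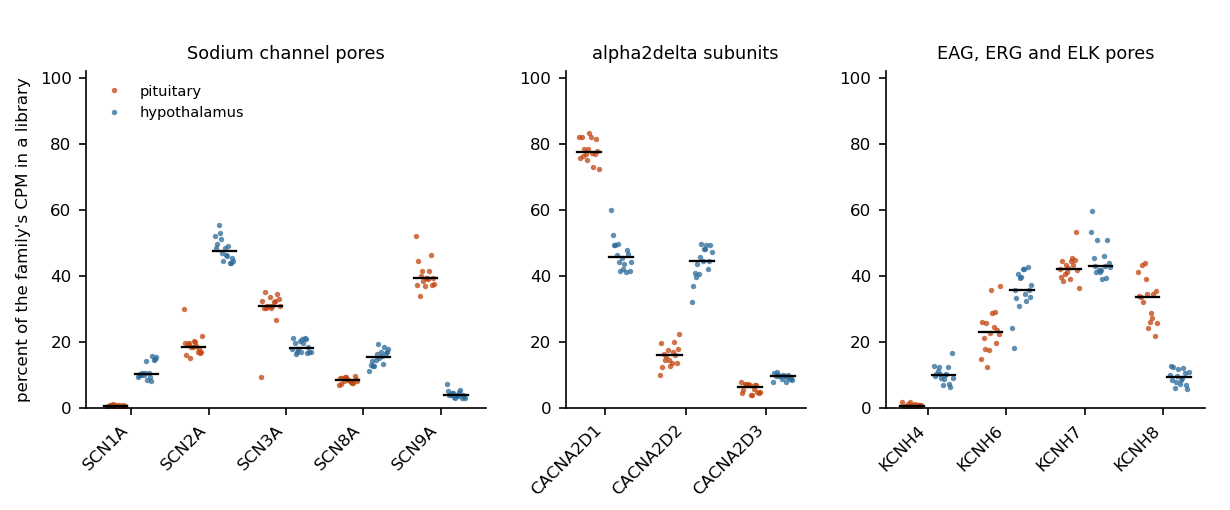
Percent of a family's CPM taken by single genes in each library (y axis) for sodium channel pores, alpha2delta subunits and the EAG, ERG and ELK pores, with pituitary in red and hypothalamus in blue (16 libraries each) and black lines at the medians. SCN9A, CACNA2D1 and KCNH8 took median shares of 39.3%, 77.5% and 33.7% in the pituitary, against 3.94%, 45.9% and 9.43% in the hypothalamus. The EAG, ERG and ELK family held ERG and ELK genes only.

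Of the 6 pore genes, 4 lie side by side on chromosome 7 in the deposited annotation, which names no genome build. SCN9A occupies positions 19601131 to 19639038, SCN1A 19691055 to 19747676, SCN2A 19912741 to 19968241 and SCN3A 20007760 to 20062828. SCN9A and SCN1A are 52.0 kb apart and were among the genes with the largest tissue differences in opposite directions. Other neighbours also differed, in direction or only in size. On chromosome 18 KCNJ16 and KCNJ2 are 14.7 kb apart, with log2 fold changes of 4.06 (called) and 0.46 (not called, since under 1.5-fold). On chromosome 24 SCN4B and SCN2B are 5.47 kb apart, with log2 fold changes of 0.68 and -1.57, both called. On chromosome 26 KCNA10 lies 29.2 kb from KCNA2, with log2 fold changes of 2.24 and -1.0, both called. In all, 12 pairs of neighbouring channel genes were closer than 200 kb, and these 4 were picked for their contrast after the values were seen.

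The auxiliary sodium channel subunits also split. SCN4B, which in mammals promotes resurgent current, had 2.81, 4.92 and 7.21 CPM in the pituitary, against 1.52, 2.72 and 7.35 CPM in the hypothalamus, and was called higher in the pituitary although the libraries overlapped. SCN3B was 7.67-fold lower and SCN2B 2.97-fold lower in the pituitary, with no overlap between the tissues.

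Calcium channel pores differed less than sodium channel pores. None of the 6 was called higher, and 3 were called lower in the pituitary, against 25.7% and 27.8% of all genes. CACNA1B and CACNA1E, the N-type and R-type pores of nerve terminals, had log2 fold changes of -1.38 ± 0.10 SE and -1.27 ± 0.08 SE, and CACNA1H, a T-type pore, -0.70 ± 0.09 SE. The L-type pores CACNA1C and CACNA1D and the T-type pore CACNA1G had log2 fold changes of -0.58, -0.56 and -0.34, all under the 1.5-fold threshold. CACNA1G had 34.5, 62.0 and 85.5 CPM in the pituitary, against 66.8, 80.0 and 91.3 CPM in the hypothalamus, and its libraries overlapped.

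Of the alpha2delta subunits, which carry calcium channels to the membrane, CACNA2D2 was 3.75-fold lower in the pituitary and CACNA2D3 was also called lower. CACNA2D1 was not called, with a log2 fold change of 0.31, so its median share of the family's CPM was 77.5% in the pituitary and 45.9% in the hypothalamus. CACNB2, the only beta subunit that met the rule, was not called.

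All 5 CACNG genes were called lower in the pituitary, against 27.8% of all genes, with a median log2 fold change of -3.70. CACNG7 had 0.182, 0.632 and 1.72 CPM in the pituitary, against 13.8, 24.1 and 32.1 CPM in the hypothalamus (log2 fold change -5.02 ± 0.18 SE). CACNG2, known as stargazin, had 0.928, 1.68 and 2.19 CPM in the pituitary, against 26.7, 37.3 and 45.9 CPM in the hypothalamus (-4.47 ± 0.10 SE, edgeR adjusted p = 5.05e-25). CACNG3 had 1.32, 3.27 and 7.97 CPM in the pituitary, against 22.6, 44.7 and 62.1 CPM in the hypothalamus (-3.70 ± 0.15 SE). In each case every pituitary library lay below every hypothalamus library. Proteins of these 3 genes and of CACNG4 and CACNG5 are AMPA receptor partners in mammals.

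**Figure D3:**
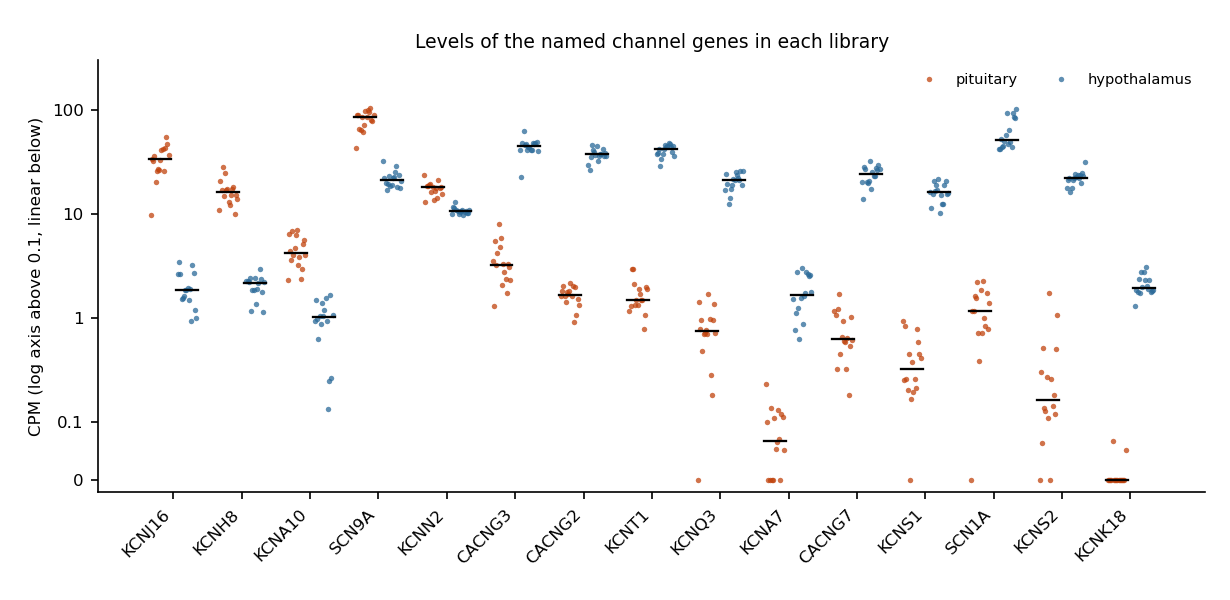
CPM of the 15 channel genes with the largest called differences and no overlap between tissues (5 higher and 10 lower in the pituitary), in each of 16 pituitary libraries (red) and 16 hypothalamus libraries (blue), with black lines at the medians. The axis is logarithmic above 0.1 CPM and linear below, and KCNK18 was at 0 in 14 of the 16 pituitary libraries.

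Among the potassium channel genes, KCNJ16 had the largest difference towards the pituitary. This inward rectifier subunit, also called Kir5.1, pairs with other Kir pores and makes them sensitive to pH. KCNJ16 had 9.84, 33.4 and 54.4 CPM in the pituitary, against 0.949, 1.87 and 3.47 CPM in the hypothalamus (16.7-fold, log2 fold change 4.06 ± 0.17 SE, edgeR adjusted p = 1.03e-18). The lowest pituitary value was that of the library that stood apart, and the other 15 ranged upwards from 20.1 CPM. Its share of the inward rectifier CPM was 21.8% in the pituitary and 1.42% in the hypothalamus. KCNJ8, the pore of vascular ATP-sensitive channels, was also called higher in the pituitary (1.65-fold). Of the other 8 inward rectifier genes, 6 were called lower, against 27.8% of all genes. Among these 6, KCNJ4 and KCNJ6 had the largest differences, with log2 fold changes of -2.40 and -2.14.

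KCNH8, an ELK-type pore, had 10.0, 16.2 and 28.5 CPM in the pituitary, against 1.14, 2.19 and 2.98 CPM in the hypothalamus (8.11-fold, log2 fold change 3.02 ± 0.14 SE, edgeR adjusted p = 7.27e-18). No libraries overlapped. KCNH7 and KCNH6, which encode ERG pores, were called higher in the pituitary too, with log2 fold changes of 1.14 ± 0.10 SE and 0.66 ± 0.15 SE. The fourth member, KCNH4, was called lower (-2.54 ± 0.20 SE). No EAG gene met the rule.

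Among the Kv7 genes, whose channels give the M-current that damps repetitive firing, KCNQ5 and KCNQ3 were called in opposite directions. KCNQ5 had 0.938, 18.02 and 36.8 CPM in the pituitary, against 3.43, 4.88 and 8.14 CPM in the hypothalamus (log2 fold change 1.82 ± 0.24 SE). Its only overlap came from the pituitary library that stood apart: the other 15 pituitary libraries had at least 9.34 CPM. KCNQ3 had 0, 0.751 and 1.71 CPM in the pituitary, against 12.4, 21.1 and 25.9 CPM in the hypothalamus (-4.60 ± 0.19 SE), with no overlap. KCNQ5 accounted for 85.3% of the family's CPM in the pituitary and 15.4% in the hypothalamus.

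Of the 12 Kv1 to Kv4 pore genes, 2 were called higher and 8 lower in the pituitary, against 25.7% and 27.8% of all genes. KCNA10, a Shaker-type pore known from kidney and inner ear in mammals, had 2.34, 4.24 and 7.08 CPM in the pituitary, against 0.136, 1.02 and 1.66 CPM in the hypothalamus (log2 fold change 2.24 ± 0.24 SE, edgeR adjusted p = 1.73e-09). KCNC2, a Kv3 pore of fast-firing neurons, was 8.58-fold lower. KCNA7 had at most 2 counts in any pituitary library and 0.627, 1.68 and 3.02 CPM in the hypothalamus (-4.61 ± 0.35 SE).

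The electrically silent subunits, drawn as Kv modifier alpha in the plot by family, which form channels only together with Kv2 pores, were among the families with the largest differences. Of the 8 genes, 7 were called lower in the pituitary and none higher, against 27.8% and 25.7% of all genes. Their median log2 fold change was -2.73. KCNS2 had 0, 0.163 and 1.76 CPM in the pituitary, against 16.4, 22.2 and 31.5 CPM in the hypothalamus (-6.00 ± 0.28 SE). KCNS1 had 0, 0.322 and 0.938 CPM in the pituitary, against 10.3, 16.1 and 21.5 CPM in the hypothalamus (-5.49 ± 0.18 SE). No libraries overlapped for either gene. The fitted folds of these rarely counted genes rest on few pituitary reads.

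Auxiliary Kv subunits gave 1 gene called higher and 3 called lower of 7, against 25.7% and 27.8% of all genes. KCNAB1 and KCNAB2, beta subunits of Kv1 channels, were 8.68-fold and 5.19-fold lower in the pituitary. KCNIP4, which modifies Kv4 channels, was not called and took 50.4% of the family's CPM in the pituitary and 21.2% in the hypothalamus.

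Calcium- and sodium-activated potassium channels split 2 higher and 2 lower of 7, near the shares over all genes tested (25.7% higher and 27.8% lower). KCNN2, a small-conductance calcium-activated (SK) channel, had 13.1, 17.96 and 23.7 CPM in the pituitary, against 9.88, 10.6 and 12.9 CPM in the hypothalamus, a small difference without overlap (1.63-fold, edgeR adjusted p = 4.36e-11). KCNN1, another SK channel, was 2.11-fold higher in the pituitary, while KCNN3 was not called (log2 fold change 0.24). KCNT1, the sodium-activated Slack channel, had 0.79, 1.5 and 3.00 CPM in the pituitary, against 28.9, 41.9 and 47.6 CPM in the hypothalamus (-4.57 ± 0.12 SE), yet its relative KCNT2 was not called (-0.24).

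Leak channels of the KCNK family were called higher for 3 genes and lower for 5 of 11, against 25.7% and 27.8% of all genes. KCNK9 and KCNK3, acid-sensitive TASK channels, were 2.79-fold and 2.35-fold higher in the pituitary, and KCNK13 was called higher as well. KCNK15, also of the TASK group, was called lower (1.86-fold). KCNK18, the calcineurin-regulated TRESK channel, had 2 counts in all 16 pituitary libraries together, against 530 counts in the 16 hypothalamus libraries. The ratio of the depth-scaled totals, hypothalamus over pituitary, was 264 with a 95% interval of 72.8 to 2187 (exact, counting error only). KCNK18 was thus near the detection limit in the pituitary and low in the hypothalamus, at 1.32, 1.95 and 3.12 CPM.

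Among the HCN genes, which carry pacemaker current, HCN2 and HCN3 were called lower in the pituitary. HCN2 had 5.86, 9.83 and 12.5 CPM in the pituitary, against 23.9, 41.2 and 53.1 CPM in the hypothalamus (4.12-fold lower, log2 fold change -2.04 ± 0.09 SE). HCN3 had 3.75, 8.68 and 14 CPM in the pituitary, against 24.4, 31.2 and 39.5 CPM in the hypothalamus (3.46-fold lower). Neither gene had overlapping libraries.

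Other excitability genes were also called in both directions, against 25.7% of all genes tested called higher and 27.8% lower in the pituitary. Of 11 measured calcium pumps, exchangers and store channels, 2 were higher and 8 lower in the pituitary. Of 9 chloride channels, 3 were higher and 5 lower, and of 13 TRP and PIEZO channels 2 were higher and 5 lower. Among 9 measured channel partners 1 was higher and 6 lower, and among 4 anchors of the axon initial segment 3 were lower. The 3 measured sodium pump subunits gave 1 higher and 2 lower, and neither of 2 genes of the sodium leak complex was called.

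The next comparison set 6-week against 3-week cockerels within each tissue. The study fed starter, grower and finisher diets in turn, so age cannot be told apart from diet or slaughter date. In the hypothalamus 1 of 90 channel genes, KCND3, was called, against 0.260% of the 15414 genes tested that were called higher at 6 weeks. KCND3 encodes a Kv4 pore of the subthreshold A-type current. It had 19.6, 21.6, 22.2 and 20.1 CPM in 6-week LGR and 16.9, 19.5, 19.0 and 24.0 CPM in 6-week HGR cockerels, against 11.5, 12.4, 13.7 and 10.7 CPM in 3-week LGR and 9.87, 14.3, 15.5 and 20.8 CPM in 3-week HGR cockerels. The ages did not overlap in LGR birds and overlapped in HGR birds through 3-week replicate 4. The log2 fold change was 0.59 ± 0.12 SE (edgeR adjusted p = 0.0295). This call sits at the 1.5-fold threshold and was lost when 1 library was left out in 11 of 16 cases, the exceptions being 3-week LGR replicates 2 and 3, 3-week HGR replicate 4, and replicate 1 of the 6-week LGR and the 6-week HGR birds.

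By adjusted p alone, with no fold threshold, 5 channel genes passed, against 2.31% of all genes tested. Besides KCND3 these were KCNA2 (log2 fold change 0.43 ± 0.11 SE), KCNIP1 (0.35 ± 0.08 SE) and KCNA3 (0.30 ± 0.07 SE), higher at 6 weeks, and KCNJ8 (-0.40 ± 0.09 SE), lower at 6 weeks. KCNIP1 encodes a partner of Kv4 pores such as KCND3, and KCNA2 and KCNA3 are Shaker-type pores. KCNIP1 had 22.4, 22.0, 21.9 and 21.6 CPM in 6-week LGR birds, against 17.7, 17.9, 18.29 and 17.96 CPM in 3-week LGR birds, values with little spread. In HGR birds KCNIP1 had 23.2, 25.8, 22.6 and 28.6 CPM at 6 weeks, against 15.6, 17.6, 19.96 and 22.7 CPM at 3 weeks. KCNA3 had 20.8, 22.2, 20.4 and 23.8 CPM in 6-week LGR birds, against 14.2, 15.0, 14.7 and 15.2 CPM in 3-week LGR birds. In HGR birds its ages overlapped, at 17.5, 19.95, 16.9 and 18.7 CPM at 6 weeks, against 14.7, 19.4, 17.9 and 18.7 CPM at 3 weeks.

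**Figure D4:**
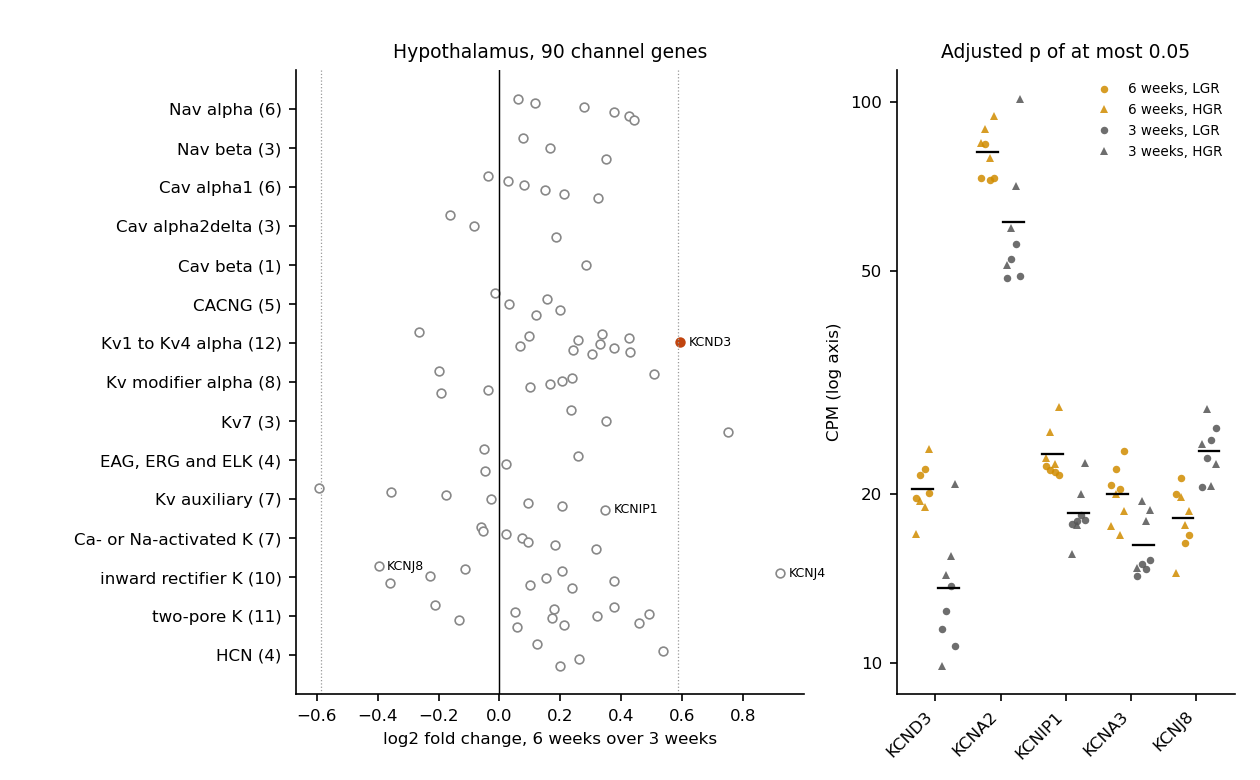
Left, log2 fold change of the 90 channel genes in the hypothalamus, 6 weeks over 3 weeks (x axis), by family; the filled point is the called gene KCND3 and dotted lines mark 1.5-fold. Right, CPM (log axis) in each hypothalamus library of the 5 genes with an adjusted p of at most 0.05, 6 weeks left of 3 weeks, with black lines at the means; KCNJ8 alone was lower at 6 weeks.

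Below these thresholds most hypothalamic channel genes leaned towards the older birds. The log2 fold change was above 0 for 68 of 90 genes, against 48.9% of all genes tested, with a median of 0.17 over the channel genes and -0.01 over all genes. At an unadjusted p under 0.05 there were 30 channel genes higher and 3 lower at 6 weeks, against 12.8% and 11.4% of all genes tested. The sign was positive for all 3 sodium channel beta subunits, 11 of 12 Kv1 to Kv4 pores, 5 of 6 calcium channel pores and 9 of 11 leak channels. It was mixed for the ERG-type family (2 of 4) and the auxiliary Kv subunits (3 of 7). Neuron markers moved alongside, with 8 of 9 positive and a median log2 fold change of 0.21, and so did astrocyte markers (5 of 6 positive, median 0.32). Pituitary endocrine markers in the hypothalamus libraries were negative for all 7 tested (median -1.64), and their sum was 374 to 1774 CPM at 6 weeks and 451 to 2932 CPM at 3 weeks. The part of these markers in the channel values was not tested.

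A single library bore on the number of calls. Without the 3-week HGR replicate 4, 5 channel genes were called higher at 6 weeks, among them KCND3, KCNG1, a silent Kv subunit, and KCNJ4, an inward rectifier. The share of all genes called in that fit is not given here, so whether the rise is particular to channel genes was not tested. KCND3, KCNA2 and SCN1A had their highest 3-week levels in that library (20.8, 101.4 and 93.1 CPM).

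In the pituitary no channel gene was called between the ages among 83 tested, against 0.0262% of 15280 genes. At an unadjusted p under 0.05 there were 15 channel genes, against 10.6% of all genes. The lowest adjusted p was that of CACNA1H, a T-type calcium channel pore that opens near the resting potential. CACNA1H had 17.3, 16.1, 13.8 and 13.1 CPM in 6-week LGR and 20.5, 26.1, 18.2 and 16.4 CPM in 6-week HGR birds, against 13.2, 10.8, 9.52 and 4.45 CPM in 3-week LGR and 11.1, 10.4, 8.82 and 12.6 CPM in 3-week HGR birds. The ages overlapped through 1 library, 3-week LGR replicate 1. The log2 fold change was 0.77 ± 0.17 SE (edgeR adjusted p = 0.0970), and without the 3-week LGR replicate 4 it was 0.67 ± 0.12 SE and passed both thresholds (adjusted p = 0.0376). DESeq2 called CACNA1H higher and CACNG5 lower at 6 weeks, and no other channel gene.

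CACNG5 had 3.79, 5.33, 3.72 and 1.43 CPM in 6-week LGR and 3.71, 8.67, 7.34 and 5.89 CPM in 6-week HGR pituitaries, against 9.90, 11.9, 8.10 and 15.2 CPM in 3-week LGR and 21.8, 4.76, 4.74 and 11.2 CPM in 3-week HGR pituitaries. LGR birds did not overlap between ages and the HGR birds did. The log2 fold change was -1.18 ± 0.33 SE (edgeR adjusted p = 0.184).

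Whether the age difference itself differed between the tissues was tested as an interaction. No channel gene was called, and 13 had an unadjusted p under 0.05, against 6.07% of all genes. DESeq2 called 3 (CACNG5, CACNA1H and KCNK10). KCNK10, a mechanosensitive leak channel also named TREK2, had the lowest unadjusted p, with a difference of log2 fold changes, pituitary minus hypothalamus, of -1.11 ± 0.25 SE (edgeR adjusted p = 0.161). Without the 3-week LGR pituitary replicate 4 this difference was -1.18 ± 0.24 SE and was called (edgeR adjusted p = 0.0409). Its 6-week pituitaries had 5.10, 8.10, 4.69 and 5.21 CPM (LGR) and 6.02, 6.10, 5.01 and 3.52 CPM (HGR), against 4.62, 10.5, 5.96 and 3.52 CPM (LGR) and 9.21, 12.8, 11.2 and 11.3 CPM (HGR) at 3 weeks, so the ages were apart in the HGR pituitaries only. In the hypothalamus its log2 fold change with age was 0.49 ± 0.14 SE (edgeR adjusted p = 0.0635).

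LGR and HGR cockerels were compared in each tissue and age to ask whether channel expression went with growth rate. The clearest difference was in the hypothalamus at 6 weeks. SCN1A was the only channel gene called, lower in LGR birds, against 0.114% of 14944 genes called lower. SCN1A had 47.1, 64.2, 49.2 and 43.9 CPM in LGR birds, against 93.7, 86.0, 82.7 and 100.9 CPM in HGR birds. The groups did not overlap (log2 fold change -0.83 ± 0.12 SE, edgeR adjusted p = 0.0266). The call was lost when LGR replicate 1, 3 or 4 or HGR replicate 1, 3 or 4 was left out. Over all alternatives the log2 fold change was -0.95 to -0.73. LGR replicates 1 and 3 and HGR replicate 1 are among the 4 hypothalamus libraries absent from the authors' table of age differences. With these left out together, which leaves fewer birds, no channel gene was called. At 3 weeks SCN1A had 42.0, 42.1, 52.2 and 44.0 CPM in LGR birds, against 44.6, 50.7, 56.8 and 93.1 CPM in HGR birds, and the groups overlapped.

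KCNAB2, a Kv1 beta subunit, passed the adjusted p alone at 6 weeks. It had 61.0, 66.1, 65.9 and 64.5 CPM in LGR birds, against 82.6, 84.3, 81.4 and 88.7 CPM in HGR birds, with little spread within either group (log2 fold change -0.38 ± 0.05 SE, edgeR adjusted p = 0.0261, below 1.5-fold). With SCN1A this made 2 channel genes by adjusted p alone, against 0.569% of all genes. SCN4B, a sodium channel beta subunit, had 1.57, 2.37, 2.49 and 1.90 CPM in LGR birds, against 7.35, 5.55, 4.49 and 3.65 CPM in HGR birds (-1.33 ± 0.25 SE, edgeR adjusted p = 0.0560). DESeq2 called SCN1A, SCN4B and KCNMB1, a BK channel beta subunit whose log2 fold change was 1.02. At an unadjusted p under 0.05 there were 24 channel genes, 13 higher and 11 lower in LGR birds, against 18.6% of all genes. All 6 calcium channel pores had a positive log2 fold change (median 0.23), against 52.3% of all genes tested, and no calcium channel pore was called.

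Markers of the thalamus, which adjoins the hypothalamus, were lower in the same LGR birds. Of 7 tested, 6 were negative and GBX2 and TCF7L2 were called. The study itself named GBX2, TCF7L2 and GRM2, all on this list, as higher in older HGR hypothalami. The list is therefore not an independent readout of this comparison. GBX2, a thalamic transcription factor, had 3.14, 2.71, 3.29 and 5.63 CPM in 6-week LGR birds, against 11.7, 25.5, 26.7 and 33.0 CPM in 6-week HGR birds. TCF7L2 had 15.8, 15.3, 13.7 and 16.7 CPM in LGR birds, against 31.5, 58.7, 91.7 and 134 CPM in HGR birds. Both had their highest 6-week value in HGR replicate 4, which also had the highest SCN1A level. At 3 weeks HGR replicate 4 was likewise the highest of 8 for SCN1A (93.1 CPM), GBX2 (29.5 CPM) and TCF7L2 (95.3 CPM). The 3-week LGR replicate 4 came next for both markers (28.2 and 54.4 CPM), while its SCN1A level was 44.0 CPM. The summed thalamus list was 585 to 711 CPM in 6-week LGR and 892 to 1134 CPM in 6-week HGR hypothalami. It was 664 to 1414 CPM in the pituitary, where 3 of its 8 genes (SHOX2, PRKCD and CALB2) were called higher and 5 lower. The sum is therefore not particular to the thalamus. Neuron markers were 4761 to 5645 CPM in 6-week LGR and 6219 to 7366 CPM in 6-week HGR hypothalami. Microglia markers moved the other way, with all 6 tested positive, 5 of them at an unadjusted p under 0.05, and a median log2 fold change of 0.77. Their sums were 239 to 519 CPM in 6-week LGR and 215 to 241 CPM in 6-week HGR hypothalami, and none was called. The part of these markers in the SCN1A difference was not tested.

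**Figure D5:**
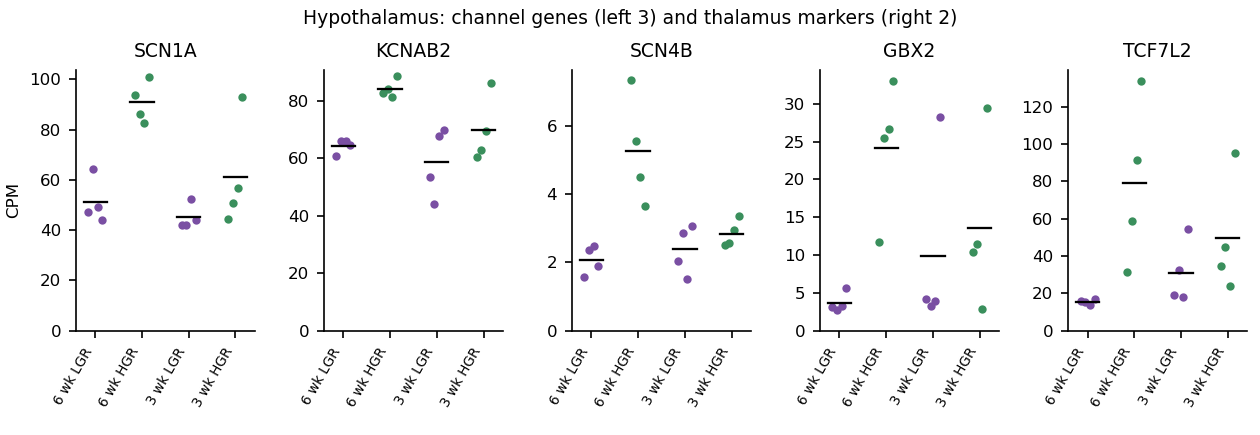
CPM in each hypothalamus library (y axis) by age and growth group for the channel genes SCN1A, KCNAB2 and SCN4B and for the thalamus markers GBX2 and TCF7L2, with LGR in purple, HGR in green and black lines at the means of 4 birds. At 6 weeks the LGR birds lay below the HGR birds for all 5 genes, with SCN1A at 43.9 to 64.2 CPM in LGR and 82.7 to 100.9 CPM in HGR birds. The study itself named GBX2 and TCF7L2 as higher in HGR birds of this age.

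In the hypothalamus at 3 weeks no channel gene was called by edgeR or by DESeq2. At an unadjusted p under 0.05 there were 10 genes, all lower in LGR birds, against 2.24% of all genes that were lower. The lowest p was that of KCNK15, a leak channel of the TASK group, with 3.43, 3.41, 2.91 and 3.42 CPM in LGR birds, against 5.06, 4.39, 5.10 and 5.45 CPM in HGR birds. Its groups did not overlap (log2 fold change -0.60 ± 0.18 SE, edgeR adjusted p = 0.774). CACNG5 gave -0.42 ± 0.15 SE (edgeR adjusted p = 0.827), with 23.5, 23.2, 27.5 and 34.8 CPM in LGR birds, against 36.3, 39.9, 30.4 and 38.6 CPM in HGR birds. All 12 Kv1 to Kv4 pores had a negative log2 fold change (median -0.31), while 50.3% of all genes tested had a positive one. None of these pores was called. Neuron markers were also negative for all 9 measured (median -0.25), and all 7 pituitary endocrine markers tested were positive (median 1.27), with sums of 912 to 2932 CPM in LGR and 451 to 1475 CPM in HGR hypothalami. The part of these markers was not tested. Without HGR replicate 4, among the 4 hypothalamus libraries absent from the authors' table of age differences, 3 channel genes had an unadjusted p under 0.05. The share of all genes at that p without this library is not given here.

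In the pituitary no channel gene was called between LGR and HGR birds at either age, by edgeR or by DESeq2. At 3 weeks 2 of 82 genes tested had an unadjusted p under 0.05, against 2.62% of all genes. These were KCNK13, with 1.73, 2.67, 2.66 and 2.81 CPM in LGR birds, against 3.50, 5.92, 2.98 and 5.28 CPM in HGR birds (log2 fold change -0.85 ± 0.31 SE), and KCNK10 (-0.82 ± 0.32 SE). KCNG2, a silent Kv subunit, came next (-0.85 ± 0.38 SE), and all 3 had an edgeR adjusted p of 0.963. Without the 3-week LGR replicate 4 there were 7 genes at that unadjusted p, and again none was called. The share of all genes at that p without this library is not given here. Of these, KCNK13, KCNK10 and KCNG2 were lower in LGR birds. KCNJ16, CACNA1G, KCNJ2 and HCN3 were higher, with log2 fold changes of 0.46, 0.35, 0.88 and 0.38. With all libraries their log2 fold changes were already positive (0.19, 0.14, 0.62 and 0.18). KCNJ16 then had the lowest p (edgeR adjusted p = 0.8003).

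At 6 weeks 4 of 83 genes had an unadjusted p under 0.05, against 6.77% of all genes. The SK channel KCNN1 had 11.4, 7.70, 13.6 and 7.93 CPM in LGR pituitaries, against 18.9, 26.7, 15.7 and 12.2 CPM in HGR pituitaries, with overlap (-0.84 ± 0.27 SE, edgeR adjusted p = 0.660). KCNAB2, lower in LGR hypothalami of this age by adjusted p alone, had 17.7, 16.7, 13.1 and 17.6 CPM in LGR pituitaries, against 13.7, 13.3, 11.6 and 12.05 CPM in HGR pituitaries (0.37 ± 0.12 SE, edgeR adjusted p = 0.660). CACNA1H gave -0.42 ± 0.16 SE (edgeR adjusted p = 0.666).

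Whether the LGR to HGR difference changed with age was tested within each tissue. No channel gene was called by edgeR or DESeq2. In the hypothalamus 13 genes had an unadjusted p under 0.05, against 5.53% of all genes, led by KCNA3 with a difference of log2 fold changes, 6 minus 3 weeks, of 0.51 ± 0.14 SE (edgeR adjusted p = 0.505). In the pituitary 1 gene, KCNK10, had an unadjusted p under 0.05, against 4.48% of all genes. Without the 3-week LGR pituitary replicate 4 there were 4, namely KCNJ16 (-0.80 ± 0.22 SE), KCNJ2 (-1.10 ± 0.38 SE), KCNK10 and KCNAB2, none called, and KCNJ16 had the lowest p (edgeR adjusted p = 0.452). The share of all genes at that unadjusted p without this library is not given here.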

How the data were processed

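Hypothalamus and pituitary RNA of 16 cockerels was sequenced as 32 libraries. The authors cleaned the reads (CASAVA 1.8.2, FastQC, Flexbar), aligned them, quantified genes with RSEM and deposited unnormalized, whole-number counts. Symbols and positions came from the authors' deposited tables of age differences, which also hold their DESeq2 fold changes and p-values for each tissue. Those values were not used. Gene start and end positions are given, as deposited, without a build.

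Genes were tested with edgeR 4.0.16 under R 4.3.3 (quasi-likelihood test on groups of tissue, age and growth rate, TMM scaling, filterByExpr with its defaults of 10 counts and a total of 15). Calls needed 0.05 or less after Benjamini-Hochberg adjustment over all genes tested, together with a 1.5-fold difference. Tissues were compared in a fit over 32 libraries, ages in the 16 of a tissue and growth groups in the 8 of a tissue and age. CPM were scaled by TMM over the 32 libraries. The SE given is the absolute log2 fold change divided by the square root of the quasi-likelihood F statistic. The procedure was tested on simulated data. Members, lists, tests and alternatives were chosen with earlier results of these data known. Full values were given for the called genes with the largest differences (10 in each direction without overlap between tissues, 6 between ages or growth groups), and where no growth difference was called, for the 3 with the lowest p. Other genes were named by family or after their values were seen. Values of a few channel genes are not reported here.

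Pituitary and hypothalamus libraries with the same bird number in their labels were paired. Their deviations from the group means correlated at 0.109 to 0.48 in all 16 pairs. Nothing in the labels says that same-numbered LGR and HGR birds were paired. The p-values measure the spread between birds of a group. In the fits over 32 libraries both libraries of a bird were treated as independent, and the bird as a block was an alternative. None of 48 pairs of libraries within a group agreed within counting noise. Alternatives were DESeq2 1.42.0, other scaling, no filter, the adjusted p alone, a block, wider fits and leaving out libraries. A 4-fold threshold and the overlap without 1 library were added after seeing the data.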

Additional observations from a re-analysis of the deposited data

Results flagged for a closer look

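Of 142 groups of 4 libraries of the named genes that were examined, 11 held a library far from the other 3 (chance gives about 1 in 20). Of these, 4 concern the pituitary at trace levels: KCNK18 was highest in 3-week HGR replicate 1 (0.0687 CPM, the other 3 at 0) and in 6-week HGR replicate 4 (0.0517 CPM, the other 3 at 0), and KCNS2 in 6-week LGR replicate 1 (1.76 CPM, the others at most 0.261) and 3-week HGR replicate 3 (0.276 CPM, the others at most 0.137). In the pituitary KCNJ16 was low in 3-week LGR replicate 4 (9.84 CPM, the others 32.4 to 36.3), the library with the lowest depth. CACNG7 was low in 6-week LGR replicate 3 (0.326 CPM, the others 0.592 to 0.643) and KCNK13 in 3-week LGR replicate 1 (1.73 CPM, the others 2.66 to 2.81). In the hypothalamus CACNG7 was high in 3-week HGR replicate 4 (32.1 CPM, the others 20.01 to 20.6), KCNH8 in 3-week LGR replicate 4 (2.45 CPM, the others 2.25 to 2.27) and KCNK18 in 6-week HGR replicate 1 (2.31 CPM, the others 1.801 to 1.85). KCNK15 was low in 3-week LGR replicate 3 (2.91 CPM, the others 3.41 to 3.43).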

How the results depend on the processing

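Between tissues 68 to 72 channel genes were called under other scaling, DESeq2, no filter, the bird as a block (71) and without 4 hypothalamus libraries, 86 by adjusted p alone and 32 at 4-fold, and 69 to 72 with 1 library left out. No called gene changed sign in any of these fits. Upper-quartile scaling moved the median of all genes to 0.16, and the 90 channel genes to -0.84. For age in the hypothalamus (1 called) DESeq2 gave 2, upper-quartile scaling 0, the fit over all 32 libraries 0, the set without 4 libraries 3, the adjusted p alone 5, and leaving out 1 library 0 to 5. For age in the pituitary (0 called) DESeq2 and the fit over all 32 libraries gave 2, and leaving out 1 library 0 to 1. For growth in the 6-week hypothalamus (1 called) DESeq2 gave 3, the adjusted p alone 2, and the set without 4 libraries, the replicate number as a block and the fit over 16 libraries gave 0, as did leaving out most single birds (0 to 1). For the interaction of tissue and age (0 called) DESeq2 gave 3 and leaving out 1 library 0 to 1. The 5 remaining comparisons gave 0 under every alternative and with any 1 library left out. The same-numbered LGR and HGR samples correlated at -0.189 to 0.162, so the number block is only a check. Beyond the growth call and the tissue count above, the block changed no count of calls. The cause of these shifts was not tested. In the shallowest library (6231478 counts) a gene with a few reads, such as KCNK18 or KCNA7, cannot be told from an absent one.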
